A study of Mus musculus with 6 samples.

Results

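Basal keratinocytes, the cells of the innermost epidermal layer and of the outer layer of the hair follicle, were compared between 2 d and 4 d after depilation. They were selected on measured values. A barcode was taken as a basal keratinocyte when it had 500 to 7000 detected genes, at most 10% mitochondrial UMIs (unique molecular identifiers, each standing for 1 captured transcript), at least 100 UMIs of Krt5 and Krt14 and under 100 UMIs of Krt1 and Krt10 per 10000 UMIs. This gave 5012 cells at 2 d and 5019 cells at 4 d, 10031 of the 21944 barcodes within the same gene and mitochondrial limits in these 2 libraries and of the 61031 barcodes of the 6 libraries. The study followed the dorsal skin of wildtype male FVB mice from 0 h to 6 d after depilation. The mice were shaved and waxed at telogen, the resting phase of the hair cycle, at postnatal day 55 to 57. Dissociated cells of a pair of mice were mixed in equal numbers for each time point, and 1 droplet library (10x Genomics) was made from the mixture. Both groups therefore share the genotype, the sex, the strain and the waxing, and differ in the time since it.

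The mixed mice of 1 library could not be told apart and each time point had 1 library, so there was no replicate error and no test between 2 d and 4 d was possible. UMIs were summed over the basal cells of a library and divided by the total UMIs of those cells (counts per 1000000 UMIs, CPM). The ratio of the 4 d value to the 2 d value is given with an exact 95% interval in parentheses, which covers counting error only and neither the difference between mice nor that between libraries. The basal cells held 45420463 UMIs at 2 d, with a median of 7842 per cell, and 34959090 UMIs at 4 d, with a median of 6188. Only 5 barcodes occurred among the basal cells of both libraries.

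Markers that the selection did not use were read as a check of the cells. Col17a1, a hemidesmosomal collagen of basal keratinocytes, stood at 899 CPM at 2 d and 852 CPM at 4 d. In T cell-like barcodes of the same libraries Col17a1 stood at 60.5 and 55.7 CPM. These barcodes had at least 20 UMIs of Cd3d, Cd3e, Cd3g, Trdc and Trbc2 and under 100 UMIs of Krt5 and Krt14 per 10000. They also met the same gene and mitochondrial limits. Low Krt5 and Krt14 was part of their definition, so this contrast depends in part on the selection. Itga6, the integrin subunit that pairs with Itgb4 in hemidesmosomes, stood at 502 CPM at 2 d and 319 CPM at 4 d in basal cells. The limits cut through a continuum of keratin levels. With the other limits met, 174 barcodes lay just below the Krt5 and Krt14 limit (90 to 100 per 10000) and 159 just above it (100 to 110) at 2 d. At 4 d the same bands held 461 and 449 barcodes, and the median Krt5 and Krt14 content of a basal cell was 318.5 per 10000 at 2 d and 216.9 at 4 d.

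Basal keratinocytes adhere to the basement membrane, divide, and supply the differentiating layers above them. In the hair follicle the corresponding cells form the outer root sheath and the bulge, which hold the follicle stem cells, and at the onset of anagen these cells divide and the outer root sheath grows down around the new hair matrix. Hedgehog and Wnt signals promote that growth, whereas BMP signals favour rest. Injury to the skin makes keratinocytes release chemokines and EGF family ligands and switch on the wound keratins Krt6a, Krt6b, Krt16 and Krt17.

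A gene was measured when the mean of its 2 CPM values was at least 5, and it was counted as higher or lower when the whole interval of its ratio lay past 1.5-fold. In all basal cells 9288 genes were measured, of which 1107 (11.9%) were higher and 250 (2.69%) were lower at 4 d. The median log2 ratio of all measured genes was 0.25, so a typical gene lay above a ratio of 1. With the TMM scaling of edgeR the median was 0.0049. Of the 9270 genes measured with it 483 were higher and 521 lower, so the balance of directions depended on the scaling. List medians below are to be read against the median of all genes, and list counts against the shares of all genes in the same cells. Genes that are named below as higher or lower stayed past 1.5-fold with TMM, unless it is stated otherwise. Where TMM changed the count of a list, its higher and lower counts follow in parentheses. TMM also changed which genes reached 5 CPM, so the number of measured members is added to these counts where it differed.

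The composition of the basal cells differed between the libraries. Cells with at least 1 UMI of Lhx2, Lgr5 or Sfrp1, genes of the outer root sheath and bulge, made up 33.7% (32.4% to 35.0%) at 2 d and 41.3% (39.9% to 42.7%) at 4 d. This class was not uniform. At 2 d a single UMI of Sfrp1 was the only follicle UMI in 59.5% of its cells, against 30.4% at 4 d. Cells with at least 3 follicle UMIs made up 6.21% at 2 d (311 cells) and 18.9% at 4 d (948 cells). A UMI of Lhx2, a transcription factor of follicle stem cells, was found in 5.59% of basal cells at 2 d and in 21.7% at 4 d, and one of Lgr5, an R-spondin receptor of follicle stem cells, in 160 and 550 cells. Sfrp1, which encodes a secreted Wnt inhibitor, was found in 31.3% and 34.0%. After each cell was thinned to 3000 UMIs, the share with at least 1 follicle UMI was 16.4% at 2 d and 29.4% at 4 d. In T cell-like barcodes, which should lack these genes, 2.21% (1.34% to 3.43%) held a follicle UMI at 2 d and 8.74% (6.90% to 10.9%) at 4 d, at median depths of 2048 and 2392 UMIs. With a stricter keratin gate (at least 200 UMIs of Krt5 and Krt14 and under 50 of Krt1 and Krt10 per 10000) the share with a follicle UMI was 33.8% at 2 d and 32.4% at 4 d. The counting interval of that difference ran from -3.74 to 0.987 points, so a larger share at 4 d was not seen among cells with much Krt5 and Krt14. Among the genes named below over all basal cells, Pinlyp, Fzd7, Lgr4, Lrig1, Errfi1, Fosl1, Cdk4, Bcl2 and Itga6 were not past 1.5-fold with this gate.

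**Figure D1:**
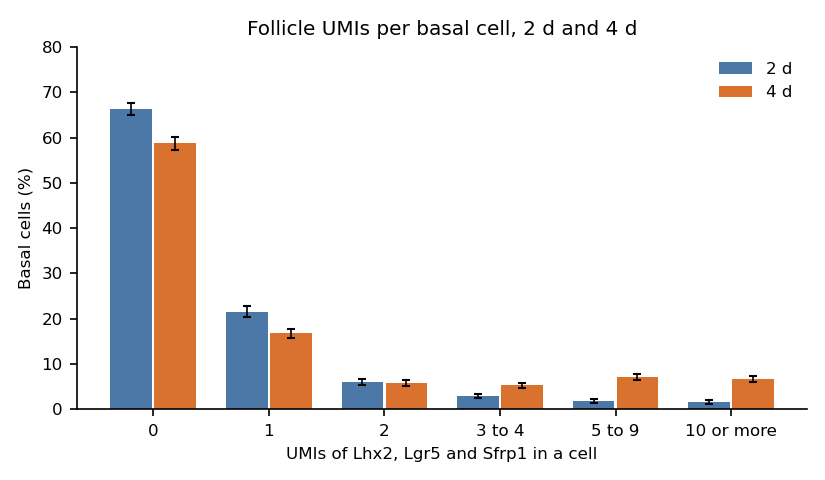
Share of basal cells (%) by the number of UMIs of Lhx2, Lgr5 and Sfrp1 in the cell, at 2 d (blue) and 4 d (orange), with exact 95% binomial intervals as error bars. Cells with 5 to 9 UMIs made up 1.76% at 2 d and 7.11% at 4 d, and cells with 10 or more 1.54% and 6.56%, while single UMIs were more frequent at 2 d (21.5% and 16.7%).

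Because of this shift every ratio was repeated within cells without a follicle UMI (3325 at 2 d, 2947 at 4 d) and within cells with one (1687 and 2072). The split rests on these 3 genes and does not remove all follicle cells. Of the cells without follicle UMIs 93.2% at 2 d and 85.1% at 4 d held a UMI of a wider follicle list (Cd34, Postn, Sox9, Tbx1, Nfatc1, Krt24, Krt79, Cst6, Shisa2 and Dkk3). How many of these were follicle cells was not tested. Without follicle UMIs 9108 genes were measured, of which 620 (6.81%) were higher and 206 (2.26%) lower, and with TMM 294 were higher and 367 lower. With follicle UMIs 9459 genes were measured, of which 1317 (13.9%) were higher and 283 (2.99%) lower, and with TMM 598 were higher and 627 lower. The median log2 ratio was 0.19 without and 0.29 with follicle UMIs. In cells with at least 3 follicle UMIs (311 and 948), a class added after the data were seen, 743 (7.63%) of 9734 genes were higher and 313 (3.22%) lower.

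**Figure D2:**
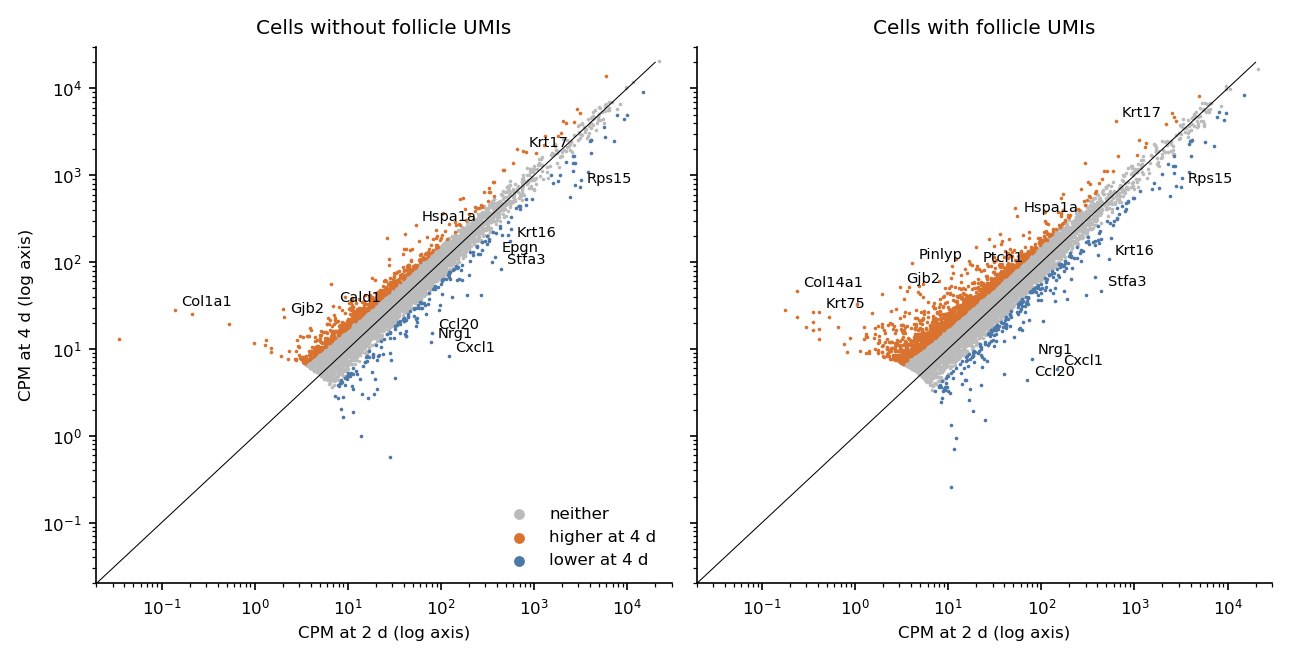
Level of each measured gene (mean of at least 5 CPM, and above 0 at both times) at 2 d (x axis, CPM, log scale) and 4 d (y axis, CPM, log scale) in cells without (left) and with (right) follicle UMIs, each point 1 gene and the line equality. Cxcl1, Nrg1 and Ccl20 lie well below the line in both kinds of cell, and Col14a1 (0.236 and 46.7 CPM) lies far above it in cells with follicle UMIs.

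The chemokines and other alarm genes of keratinocytes were among those furthest below at 4 d. Cxcl1, a neutrophil attractant, stood at 131 CPM at 2 d and 7.24 CPM at 4 d, 18.1-fold lower (16.0 to 20.6). It was 14.6-fold lower (12.5 to 17.2) in cells without and 25.0-fold lower (20.3 to 31.1) in cells with follicle UMIs. Cells with a Cxcl1 UMI, at 2000 UMIs per cell, made up 11.8% (10.9% to 12.8%) of basal cells at 2 d and 0.960% (0.706% to 1.27%) at 4 d. This share follows the level and is not a separate result. T cell-like barcodes held 9.93 and 1.06 CPM. Ccl20, which attracts Ccr6-bearing lymphocytes and dendritic cells, stood at 76.6 CPM at 2 d and 10.4 CPM at 4 d, 7.40-fold lower (6.64 to 8.27). Cells without follicle UMIs held 80.00 and 15.2 CPM and cells with them 71.0 and 4.39 CPM at 2 d and 4 d, so the 2 d levels were close and the 4 d level was lower with follicle UMIs. Il24, an IL-10 family cytokine of wounded epidermis, stood at 11.5 CPM at 2 d and 0.699 CPM at 4 d in cells with follicle UMIs, 16.4-fold lower (8.98 to 33.5). Ptgs2, the inducible cyclooxygenase, stood at 145 and 56.5 CPM, 2.57-fold lower (2.45 to 2.71) over all basal cells. Ccl2, a monocyte attractant, went the other way, at 6.58 CPM at 2 d and 16.7 CPM at 4 d and 2.54-fold higher (2.21 to 2.93), and its ratio in cells with follicle UMIs was 1.32 (1.04 to 1.69). Of the 26 alarm genes listed, 1 of 13 measured members was higher and 5 lower (1 and 9 of 14 with TMM) over all basal cells. Without follicle UMIs 1 of 13 measured members was higher and 4 lower (1 and 6 of 14 with TMM). With them none of 12 measured members was higher and 8 were lower (0 and 12 of 15 with TMM). The median log2 ratios were -0.56, -0.30 and -0.96 over all basal cells, without and with follicle UMIs, all below the medians of all genes. S100a9, a calgranulin abundant in neutrophils and induced in wounded keratinocytes, stood at 20.7 CPM at 2 d and 0.486 CPM at 4 d, but 1 cell held 31.8% of its UMIs at 2 d, and without the highest cell of each library it was 41.0-fold lower. At 2 d and 2000 UMIs per cell, a S100a9 UMI was found in 0.682% of basal cells and 0.651% (0.134% to 1.89%) of T cell-like barcodes.

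The promoters of Cxcl1 and Ccl20 are shown because both chemokine genes were lower in both kinds of cell. The 250 bases before the transcription start are given 5′ to 3′ from RefSeq (GRCm38.p6, the build named mm10 in the submitters' processing notes), with capitals for a match to GGANTTTCC on either strand, a form of the site bound by NF-kB.
Cxcl1, chr5:90890995-90891244, plus strand: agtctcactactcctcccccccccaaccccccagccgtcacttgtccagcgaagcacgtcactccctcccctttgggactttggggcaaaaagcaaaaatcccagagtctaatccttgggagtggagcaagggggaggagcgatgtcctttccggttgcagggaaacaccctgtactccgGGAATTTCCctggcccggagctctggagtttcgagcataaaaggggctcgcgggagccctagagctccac
Ccl20, chr1:83116516-83116765, plus strand: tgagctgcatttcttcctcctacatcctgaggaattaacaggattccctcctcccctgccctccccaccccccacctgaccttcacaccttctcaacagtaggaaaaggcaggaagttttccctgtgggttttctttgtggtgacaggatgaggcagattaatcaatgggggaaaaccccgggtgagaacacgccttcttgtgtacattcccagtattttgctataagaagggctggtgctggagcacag
Cxcl1 had 1 match, which began 70 bases before the start, and Ccl20 had none in this window. Other forms of the site were not searched for, so the lack of a match in Ccl20 covers this form only. The letters occur in 350 of 32851 promoter windows of this length (1.07%). Of the 20 alarm genes with a promoter entry, 3 held them (Cxcl1, Cxcl2 and Csf1). A match is a description of the sequence and was not tested as a site.

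Nrg1, Epgn, Areg and Tgfa, ligands of the ERBB receptors, were lower at 4 d in both kinds of cell. Nrg1, a ligand of Erbb3 and Erbb4, stood at 78.5 CPM at 2 d and 10.1 CPM at 4 d, 7.75-fold lower (6.95 to 8.67), with 0.903 and 0 CPM in T cell-like barcodes. Epgn, an EGF receptor ligand, stood at 380.0 CPM at 2 d and 94.0 CPM at 4 d, 4.04-fold lower (3.89 to 4.20), and was 3.31-fold lower (3.16 to 3.46) without and 5.57-fold lower (5.22 to 5.95) with follicle UMIs. Hbegf, a further ligand, stood at 381 CPM at 2 d and 317 CPM at 4 d, a ratio of 0.832 (0.813 to 0.852). It was not past 1.5-fold over all basal cells. With follicle UMIs Hbegf was past 1.5-fold lower with TMM only, and with at least 3 follicle UMIs it was lower without TMM. Tgfa stood at 19.1 and 8.58 CPM, 2.22-fold lower (1.95 to 2.54), and Errfi1, an intracellular inhibitor of the receptor, stood at 153 and 78.8 CPM, 1.94-fold lower (1.85 to 2.02). Areg stood at 189.7 CPM at 2 d and 39.7 CPM at 4 d, 4.78-fold lower (4.52 to 5.06). For Areg the level in T cell-like barcodes was higher than in basal cells and went the same way, at 806 and 208 CPM, and its part in the basal values was not tested. Lrig1 and Lrig3, transmembrane proteins of which Lrig1 restrains EGF receptors and marks upper follicle stem cells, were 2.00-fold higher (1.87 to 2.13) and 2.05-fold higher (1.87 to 2.25). Of the 16 listed ERBB genes, 2 of 11 measured members were higher and 5 lower. With follicle UMIs 2 of 11 measured members were higher and 5 lower (2 and 6 with TMM). Without them 3 of 12 measured members were higher and 5 lower (1 and 5 with TMM). Erbb3 was higher there as well, at 40.4 and 66.4 CPM, but in these cells neither Erbb3 nor Lrig3 was past 1.5-fold with TMM.

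The wound keratins did not move together. Krt16 stood at 544 CPM at 2 d and 146 CPM at 4 d, 3.72-fold lower (3.61 to 3.84), and Krt6a stood at 161 and 75.1 CPM, 2.14-fold lower (2.04 to 2.24). Krt6b, which shares much of its sequence with Krt6a so that reads may be split between them, had 426 UMIs at 2 d and 4 at 4 d. In cells without follicle UMIs it stood at 8.58 CPM at 2 d, with 62.7% of these UMIs in 1 cell, and had none at 4 d. Krt17, a keratin of wounded epidermis and of the outer root sheath, stood at 708 CPM at 2 d and 2938 CPM at 4 d, 4.15-fold higher (4.10 to 4.20). It was 2.52-fold higher (2.48 to 2.57) without and 6.69-fold higher (6.55 to 6.83) with follicle UMIs, and T cell-like barcodes, which should lack it, held 478 and 1304 CPM. Of the listed keratins 4 of 8 measured members were higher and 2 lower (4 and 3 of 9 with TMM). Further genes named by their rank were lower at 4 d. Stfa3 and Cstdc5, cysteine protease inhibitors of the stefin A cluster whose near-identical members can share reads, were 6.54-fold lower (6.27 to 6.83) and 6.80-fold lower (6.44 to 7.18). Cells with a Stfa3 UMI at 2000 UMIs per cell made up 36.5% (35.2% to 37.9%) at 2 d and 8.31% (7.56% to 9.12%) at 4 d. Sprr1b, a cornified envelope precursor, Has3, a hyaluronan synthase, and Guca2a, which encodes the peptide guanylin, were 8.98-fold lower (7.17 to 11.4), 4.89-fold lower (4.10 to 5.85) and 3.99-fold lower (3.71 to 4.30). At 2 d and 2000 UMIs per cell, a Sprr1b UMI was found in 2.69% of basal cells and 3.25% (1.83% to 5.31%) of T cell-like barcodes. Sprr1b was thus no more frequent in basal cells than in this background at 2 d. Gm14636, a predicted gene, and Lsmem1, a single-pass membrane protein, stood at 35.2 and 4.92 CPM and at 19.7 and 2.77 CPM at 2 d and 4 d, and both were lower.

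In the other libraries these levels did not follow 1 course, as the plot of levels over the 6 libraries shows. From 0 h to 6 d, in time order, Cxcl1 stood at 151, 53.9, 37.3, 131, 7.24 and 32.6 CPM. The 4 d value was the lowest of the 6 and the 2 d value was close to that at 0 h. Stfa3 stood, in the same order, at 18.5, 24.7, 63.7, 442, 67.6 and 132 CPM, with its highest value at 2 d. For Krt16 the 6 values were 637, 1320.1, 568, 544, 146 and 896 CPM, so its low value at 4 d was followed by a higher one. Differences between libraries cannot be told apart from differences between the mice in them.

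**Figure D3:**
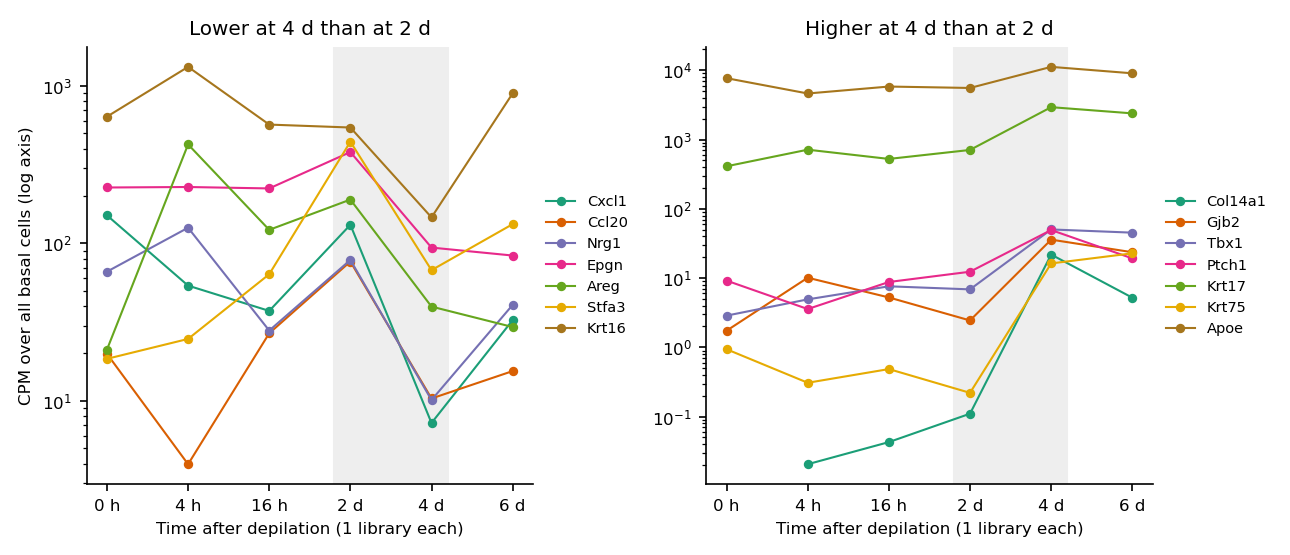
Level over all basal cells (CPM, log axis) of 7 genes lower (left) and 7 genes higher (right) at 4 d than at 2 d, in the 6 libraries, 1 per time point, with the compared pair shaded. Cxcl1 has its lowest value at 4 d and Col14a1, which is not drawn at 0 h where it had no UMI, its highest.

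Many of the genes furthest above at 4 d were more abundant in cells with than in cells without follicle UMIs. Col14a1, a fibril-associated collagen, stood at 0.110 CPM at 2 d and 21.9 CPM at 4 d (5 and 764 UMIs), 199-fold higher (84.7 to 613). It was at 46.7 CPM in cells with and 1.56 CPM in cells without follicle UMIs at 4 d, and at 15.3 CPM in T cell-like barcodes, so its level in cells without follicle UMIs was below that background. Gjb2, which encodes the gap junction protein connexin 26, stood at 2.44 CPM at 2 d and 35.9 CPM at 4 d and was 11.3-fold higher (8.57 to 15.0) without and 16.7-fold higher (12.6 to 22.6) with follicle UMIs. Basp1, Rflna, Ramp1, Bgn, Nrep and Enpp1 were 14.6-fold, 14.5-fold, 10.4-fold, 9.43-fold, 8.92-fold and 7.98-fold higher over all basal cells. For Ramp1, which encodes a subunit of the receptor for calcitonin gene-related peptide, T cell-like barcodes held more than basal cells (36.1 and 113 CPM). Krt75, a keratin of the companion layer between the inner and outer root sheath, stood at 0.413 CPM at 2 d and 26.6 CPM at 4 d in cells with follicle UMIs. Pinlyp and Wfdc18 stood at 4.13 and 96.6 CPM and at 0.177 and 28.2 CPM in the same cells. Pinlyp was not evenly spread, since 1 cell held 13.1% of its UMIs at 4 d. In cells with follicle UMIs Mfap2, Dbn1, Gnmt and Cntfr stood between 0.354 and 1.53 CPM at 2 d and between 20.4 and 32.9 CPM at 4 d.

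Among the genes of bulge and outer root sheath, Tbx1, a transcription factor of follicle stem cells, stood at 16.7 CPM at 2 d and 102 CPM at 4 d in cells with follicle UMIs, 6.13-fold higher (5.40 to 6.98). Its level in cells without follicle UMIs (1.02 and 7.96 CPM) was below that in T cell-like barcodes (3.61 and 29.5 CPM). Sox9, which specifies the outer root sheath, stood at 164 and 369 CPM, 2.24-fold higher (2.14 to 2.35) with follicle UMIs and had a ratio of 1.05 (0.995 to 1.10) without them. Over all basal cells its ratio was 1.70 (1.65 to 1.76), which was not past 1.5-fold with TMM and was 0.890 with the stricter keratin gate. Krt15 and Krt79, a keratin of bulge and basal cells and one of the upper follicle, were 1.98-fold higher (1.97 to 2.00) and 2.68-fold higher (2.64 to 2.71). Apoe, the apolipoprotein, was one of the most abundant transcripts, at 5562 CPM at 2 d and 11217 CPM at 4 d. These values of Krt15, Krt79 and Apoe are over all basal cells. With TMM Krt15 and Apoe were past 1.5-fold without follicle UMIs but not with them. In cells with at least 3 follicle UMIs neither Krt15 nor Apoe was past 1.5-fold. Of the bulge and outer root sheath genes, 12 of 23 measured members were higher and 1 lower (8 and 1 with TMM) with follicle UMIs and 3 of 17 measured members were higher and 1 lower without. In cells with at least 3 follicle UMIs 4 of 24 measured members were higher and 3 lower, with a median of 0.09 beside 0.26 for all genes. Postn, a matrix protein, was lower in each of these classes, at 372 CPM at 2 d and 136 CPM at 4 d and 2.74-fold lower (2.65 to 2.83). Of the upper follicle genes, 7 of 15 measured members were higher and 1 lower (6 and 2 with TMM) in cells without follicle UMIs, Fcgbp being the lower one, and of the interfollicular basal genes none of 13 measured members was past 1.5-fold (0 and 1 with TMM). In cells with follicle UMIs Ly6a, a surface protein of interfollicular and upper follicle cells, and Ifitm3, an interferon-induced membrane protein, were lower, at 357 and 172 CPM and 851 and 492 CPM. Of the interfollicular basal genes none of 12 measured members was higher and 2 were lower (0 and 7 with TMM) in these cells.

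Hedgehog pathway genes were higher at 4 d in cells with follicle UMIs. Ptch1, the Hedgehog receptor and a target of the pathway, stood at 20.3 CPM at 2 d and 90.8 CPM at 4 d, 4.48-fold higher (3.98 to 5.06). Gli1, a transcription factor that is itself a target, stood at 3.01 CPM at 2 d and 23.01 CPM at 4 d, 7.66-fold higher (5.70 to 10.5). Smo, the signal transducer, stood at 40.0 and 68.0 CPM, 1.70-fold higher (1.54 to 1.88) and not past 1.5-fold with TMM. Of the Hedgehog list 10 of 16 measured members were higher and none lower (7 and 0 with TMM) in these cells (among them Gli1, Ptch1, Gli2, Sox9 and Smo), with a median log2 ratio of 0.84. Without follicle UMIs 1 of 12 measured members was higher and none lower (0 and 0 with TMM). This was Ptch1, at 7.63 and 15.6 CPM and not past 1.5-fold with TMM, below the 36.1 and 59.98 CPM of T cell-like barcodes. With follicle UMIs the Ptch1 level was also below the T cell-like level at 2 d (20.3 CPM) but above it at 4 d (90.8 CPM). Shh, the ligand, was not measured at 5 CPM. In cells with at least 3 follicle UMIs, Ptch1 stood at 66.4 and 159 CPM and Gli1 at 10.8 and 40.2 CPM at 2 d and 4 d, 2.39-fold higher (2.07 to 2.76) and 3.71-fold higher (2.64 to 5.35).

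Some Wnt receptor genes were higher over all basal cells, while the median of the Wnt list lay near that of all genes. Fzd2 stood at 10.4 CPM at 2 d and 44.8 CPM at 4 d, 4.32-fold higher (3.90 to 4.80), and Fzd7 and Lgr4, an R-spondin receptor, were 2.37-fold higher (2.15 to 2.62) and 2.54-fold higher (2.37 to 2.73). Among ligands Wnt6 stood at 13.5 and 25.5 CPM, 1.89-fold higher (1.71 to 2.10) but not past 1.5-fold with TMM, Wnt5a stood at 42.3 and 24.6 CPM, 1.72-fold lower (1.59 to 1.87) and Wnt10a had a ratio of 1.26 (1.21 to 1.31). Axin2, a Wnt target, stood at 12.2 CPM at 2 d and 17.2 CPM at 4 d, a ratio of 1.40 (1.25 to 1.58). Of the Wnt list 8 of 33 measured members were higher and 1 lower (6 and 2 with TMM), with a median of 0.30. Without follicle UMIs 5 of 33 measured members were higher and none lower (1 and 1 with TMM), Fzd2 being the one that stayed higher. With follicle UMIs 9 of 35 measured members were higher and 2 lower (7 and 6 with TMM), so members went both ways. In the BMP pathway the ligand gene Bmp2 stood at 71.4 and 23.6 CPM, 3.02-fold lower (2.80 to 3.27). Id4, a BMP-responsive inhibitor of helix-loop-helix factors, stood at 12.2 CPM at 2 d and 109 CPM at 4 d with follicle UMIs, 8.97-fold higher (7.76 to 10.4), and Sostdc1, a secreted BMP and Wnt antagonist, stood at 205 and 402 CPM, 1.97-fold higher (1.92 to 2.02). Of the BMP pathway and Id genes 4 of 20 measured members were higher and 1 lower (3 and 3 of 19 with TMM). Hes1, a Notch target, stood at 574 and 254 CPM, 2.26-fold lower (2.21 to 2.32) and Dusp6, a feedback inhibitor of ERK signalling, stood at 172 and 83.0 CPM, 2.07-fold lower (1.98 to 2.16), both by similar factors in cells without (2.34-fold and 2.04-fold) and with follicle UMIs (2.19-fold and 2.14-fold). Of the Notch pathway genes 2 of 13 measured members were higher and 1 lower (1 and 1 with TMM), and of the Fgf ligands, receptors and feedback genes 1 of 10 measured members was higher and 2 lower. Of the matrix genes 9 of 23 measured members were higher and 1 lower (7 and 2 of 22 with TMM) with follicle UMIs, among them the basement membrane collagen Col4a1 at 6.84 and 31.3 CPM. Without follicle UMIs 1 of 17 measured members was higher and 2 lower.

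Alcam, Alox12e, Dapk2 and Cald1 were among the genes furthest above at 4 d in cells without follicle UMIs. Alcam, a cell adhesion molecule, stood at 18.1 CPM at 2 d and 65.7 CPM at 4 d, 3.64-fold higher (3.28 to 4.04), with 27.1 and 24.5 CPM in T cell-like barcodes. Alox12e, an epidermal lipoxygenase, and Dapk2, a calcium-dependent kinase, were 3.93-fold higher (3.62 to 4.27) and 4.20-fold higher (3.65 to 4.85), and Dapk2 was more abundant in T cell-like barcodes (51.5 and 78.1 CPM). Cald1, an actin-binding protein, stood at 6.96 CPM at 2 d and 31.3 CPM at 4 d and in T cell-like barcodes at 4.97 and 31.6 CPM, so its level in these cells was no higher than the background at 4 d. With follicle UMIs Cald1 stood at 36.8 and 163 CPM. Klk7, a protease of the outer epidermis, stood at 88.7 and 232 CPM, 2.61-fold higher (2.49 to 2.74), whereas the differentiation genes Krtdap and Dmkn were 1.77-fold lower (1.72 to 1.82) and 1.92-fold lower (1.89 to 1.96). The suprabasal markers, Krtdap among them, summed to 4024 CPM at 2 d and 1817 CPM at 4 d in T cell-like barcodes. This background went the same way, and its part in the Krtdap values was not tested. Of the spinous, granular and cornified envelope genes 3 of 18 measured members were higher and 5 lower (3 and 8 with TMM) without and 6 of 19 measured members were higher and 7 lower (4 and 9 with TMM) with follicle UMIs.

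Immediate early genes, which many cell types switch on within minutes of dissociation or stress, were higher in part. Btg2, an antiproliferative target of P53, stood at 655 CPM at 2 d and 1868 CPM at 4 d, 2.85-fold higher (2.81 to 2.89). Junb, Ier2 and Egr2 were 1.98-fold higher (1.96 to 2.00), 2.17-fold higher (2.14 to 2.20) and 2.67-fold higher (2.53 to 2.82), and Jun, at 1.71 (1.69 to 1.72), was not past 1.5-fold with TMM. Fosl1, an AP-1 subunit of migrating keratinocytes, stood at 369.7 and 192 CPM, 1.93-fold lower (1.87 to 1.98). In T cell-like barcodes Junb differed less (2508 and 2708 CPM) and Btg2 went the same way (838 and 1388 CPM). Of the immediate early genes 9 of 22 measured members were higher and 1 lower (5 and 2 with TMM) without follicle UMIs and 6 of 22 measured members were higher and 2 lower (3 and 4 with TMM) with them. A few chaperones of the cytosol were higher in both kinds of cell. Hspa1a, the inducible Hsp70, stood at 54.2 CPM at 2 d and 301 CPM at 4 d, 5.56-fold higher (5.32 to 5.81), and its near-identical copy Hspa1b stood at 109 and 256 CPM, 2.34-fold higher (2.26 to 2.43), so the split between these copies is uncertain. Hspb1, a small heat shock protein, and Dnajb1, a co-chaperone of Hsp70, were 2.36-fold higher (2.32 to 2.39) and 2.10-fold higher (2.06 to 2.14). Cells with a Hspa1a UMI at 2000 UMIs per cell made up 9.43% (8.64% to 10.3%) at 2 d and 31.9% (30.6% to 33.2%) at 4 d among basal cells, and 3.47% and 8.99% among T cell-like barcodes. Hspa1a, Hspa1b, Hspb1 and Dnajb1 were all the higher ones among 20 measured chaperones, whose median was 0.07. Over all basal cells 4 were higher and none lower (4 and 2 with TMM, Calr and Hsp90ab1 being lower). Without follicle UMIs 4 were higher and 1, Calr, was lower (4 and 2 with TMM).

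Some enzymes of cholesterol and fatty acid synthesis were higher at 4 d. Fdps, farnesyl diphosphate synthase, stood at 76.6 CPM at 2 d and 172 CPM at 4 d, 2.24-fold higher (2.15 to 2.34), and Mvk, mevalonate kinase, stood at 17.5 and 37.7 CPM, 2.15-fold higher (1.97 to 2.35). Idi1, the isomerase that acts between them, stood at 45.1 and 84.6 CPM, 1.87-fold higher (1.77 to 1.98). Scd2, a fatty acid desaturase, stood at 12.1 CPM at 2 d and 49.7 CPM at 4 d, 4.12-fold higher (3.74 to 4.54). Of the listed genes 7 of 25 measured members were higher and 2 lower (3 and 2 with TMM) without follicle UMIs and 9 of 25 measured members were higher and 1 lower (7 and 1 with TMM) with them. T cell-like barcodes held 79.0 and 196 CPM of Fdps and 28.9 and 25.9 CPM of Mvk.

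In cells without follicle UMIs some class I antigen presentation genes were higher and class II genes lower. The class I genes H2-Q4 and H2-Q6, whose family members share sequence, were 2.39-fold higher (2.19 to 2.60) and 3.21-fold higher (2.80 to 3.68) in cells without follicle UMIs, and Psmb8, an immunoproteasome subunit, stood at 143 and 291 CPM, 2.03-fold higher (1.95 to 2.12). Over all basal cells Psmb8 was not past 1.5-fold with TMM, and T cell-like barcodes held 110.2 and 304 CPM. The class II genes H2-Aa and Cd74, which Langerhans cells express strongly, stood at 29.2 and 7.49 CPM and 98.3 and 31.8 CPM without follicle UMIs, 3.90-fold lower (3.26 to 4.69) and 3.09-fold lower (2.83 to 3.38). T cell-like barcodes held more of both, at 185 and 90.1 CPM and 651 and 378 CPM, and both are also Langerhans cell markers. B2m, the light chain of class I, stood at 1241 and 914 CPM in these cells, where it was past 1.5-fold lower with TMM only. Of the list 8 of 17 measured members were higher and 3 lower (3 and 4 with TMM) without follicle UMIs and 2 of 17 measured members were higher and 2 lower (0 and 3 with TMM) with follicle UMIs. Among clock genes Nr1d1 and Rora were lower at 4 d in both kinds of cell. Nr1d1, the clock repressor Rev-erb alpha, stood at 45.2 CPM at 2 d and 21.6 CPM at 4 d, 2.10-fold lower (1.93 to 2.28), and Rora, its activating counterpart, stood at 255 and 116 CPM, 2.20-fold lower (2.12 to 2.28). Nfil3, a repressor that opposes Dbp, stood at 17.0 and 32.6 CPM, 1.92-fold higher (1.75 to 2.10). With TMM it was not past 1.5-fold over all basal cells but was with follicle UMIs. Of the clock genes 1 of 14 measured members was higher and 6 lower (0 and 6 with TMM) over all basal cells, with a median of -0.34. Without follicle UMIs none of 14 measured members was higher and 4 were lower (0 and 5 with TMM). With them 1 of 14 measured members was higher and 4 lower (1 and 6 with TMM).

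The share of cycling cells differed little. A cell was called cycling when it held at least 2 UMIs from a set of 10 mitotic genes (Birc5, Cenpa, Cenpf, Hmgb2, Mki67, Nusap1, Prc1, Top2a, Tpx2, Ube2c) in a random draw of 2000 of its UMIs. Of 4982 cells at 2 d 31.6% (30.3% to 32.9%) were cycling, and of 4895 at 4 d 29.7% (28.4% to 31.0%). Over all UMIs of each cell 66.5% and 55.9% met this criterion, which then moves with depth. Among cells without follicle UMIs 30.1% were cycling at 2 d and 28.2% at 4 d, among those with them 34.5% and 31.9%, and among cells with at least 3 follicle UMIs 32.5% at both times. Of the T cell-like barcodes 39.3% and 44.8% met the same criterion after thinning. Mki67, a protein of cycling nuclei, stood at 117 CPM at 2 d and 145 CPM at 4 d, and Top2a, a topoisomerase, at 171 CPM at 2 d and 153 CPM at 4 d. Of the S phase genes 1 of 29 measured members was higher and none lower (0 and 1 with TMM), and of the G2 and M phase genes 3 of 30 measured members were higher and none lower (0 and 0 with TMM). Of the replication-dependent histones 6 of 10 measured members were higher and none lower (3 and 0 with TMM), and with follicle UMIs 2 of 10 measured members were higher and none lower (1 and 0 with TMM). Hist1h1b stood at 81.2 CPM at 2 d and 187 CPM at 4 d, but T cell-like barcodes went from 10.4 to 196 CPM. Hist1h2ap, a histone copy with close relatives, stood at 7.07 and 57.9 CPM in basal and 1.81 and 124 CPM in T cell-like barcodes. Of the cyclins D and E and CDK inhibitors 4 of 17 measured members were higher and none lower (2 and 1 with TMM). The inhibitors Cdkn1b and Cdkn1a were 2.11-fold higher (1.98 to 2.24) and 1.57-fold higher (1.53 to 1.61), the latter not past 1.5-fold with TMM, and Cdk4, the kinase partner of D cyclins, stood at 111 and 215 CPM, 1.93-fold higher (1.86 to 2.00). Without follicle UMIs Cdk4 was not past 1.5-fold, and Cdkn1b was not with TMM. With follicle UMIs both Cdk4 and Cdkn1b stayed past it with TMM.

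In the Bcl-2 family, which holds the death regulators that the study centres on, 1 of 11 measured members was higher and none lower (0 and 0 with TMM). Mcl1, an antiapoptotic member, stood at 337 CPM at 2 d and 280.4 CPM at 4 d, a ratio of 0.831 (0.810 to 0.852), and its ratio was 0.998 with the stricter keratin gate. It was at 343 and 293 CPM in cells without and at 328 and 265 CPM in cells with follicle UMIs. Bcl2, another antiapoptotic member, stood at 11.2 CPM at 2 d and 22.1 CPM at 4 d, 1.98-fold higher (1.76 to 2.21). T cell-like barcodes held more, at 149.9 and 142 CPM, and their part in the basal values was not tested. Over all basal cells Bcl2 was not past 1.5-fold with TMM. Bax, a proapoptotic effector, stood at 71.6 CPM at 2 d and 108 CPM at 4 d, a ratio of 1.51 (1.44 to 1.58). With follicle UMIs 2 of 11 measured members, Bcl2 and Bax, were higher and none lower (1 and 0 with TMM, Bcl2 staying higher). Without follicle UMIs none of 11 measured members was past 1.5-fold.

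Some differences ran through other cells of the same libraries. Rps15, Rpl23a, Rpl5 and Rps12, which encode ribosomal proteins, were 4.33-fold lower (4.27 to 4.39), 4.24-fold lower (4.17 to 4.30), 3.64-fold lower (3.60 to 3.69) and 3.05-fold lower (3.03 to 3.07) in basal cells. In T cell-like barcodes they stood at 1629.6 and 490.5 CPM, 1562 and 396 CPM, 1248 and 423 CPM and 3113 and 1182 CPM at 2 d and 4 d. Of 30 listed ribosomal protein genes, which include Rpl5 and Rps12 but not Rps15 or Rpl23a, 7 were lower and Rpl3 was higher (a ratio of 1.54, not past 1.5-fold with TMM), while the median was -0.03. From 0 h to 6 d Rps15 stood at 2635, 983, 1193, 3147, 727 and 834 CPM, so that the libraries split into higher ones (0 h and 2 d) and lower ones. Cxcl1 also had its highest values at 0 h and 2 d, whereas Stfa3 and Krt16 did not. Whether these patterns share a source was not tested. Lars2, a mitochondrial leucine tRNA ligase, and Rsrp1, a nuclear arginine and serine-rich protein, were 4.92-fold higher (4.67 to 5.19) and 3.48-fold higher (3.37 to 3.60), with 48.8 and 181 CPM and 229.8 and 487 CPM in T cell-like barcodes. Ribosomal protein genes have many near-identical pseudogenes, and the cause of these differences was not tested.

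**Figure D4:**
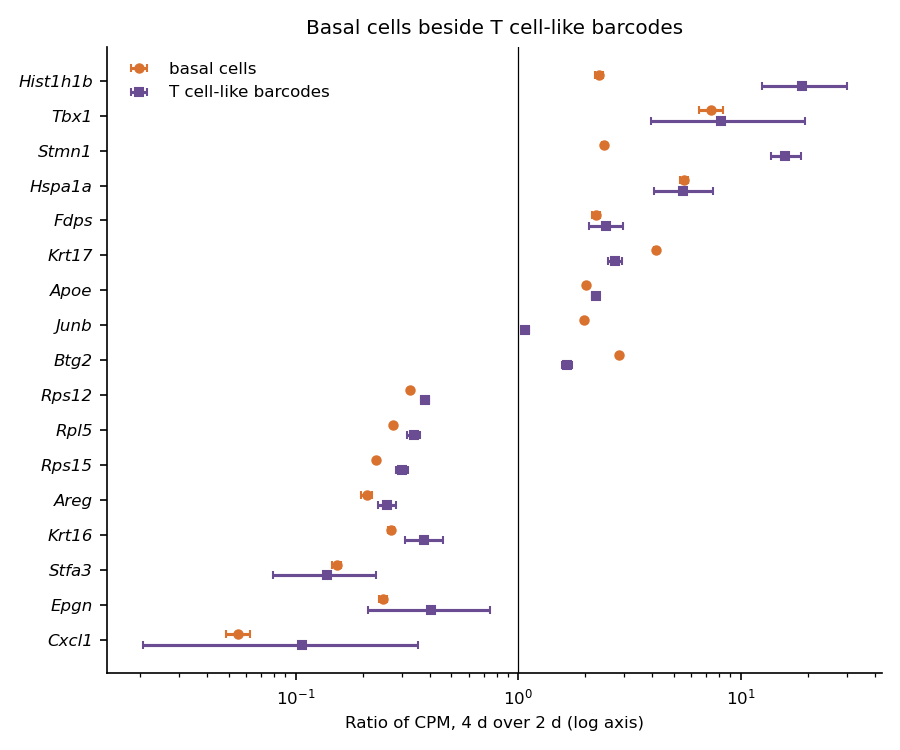
Ratio of CPM at 4 d to CPM at 2 d (log axis) of 17 genes in basal cells (circles) and in T cell-like barcodes of the same libraries (squares), with exact 95% counting intervals. The ribosomal genes, Areg, Fdps, Hspa1a and Apoe lie at similar ratios in both, whereas Junb lies at 1.98 in basal cells and 1.08 in T cell-like barcodes.

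RNA of other cell types was present in the basal sums. The 6 melanocyte markers summed to 10.8 CPM at 2 d and 103 CPM at 4 d, and those of fibroblast and dermal papilla to 2.40 and 54.5 CPM. Pmel and Dct, melanocyte genes, and Ptgds, a prostaglandin synthase, were among the genes furthest above (1.06 and 30.3 CPM, 2.64 and 36.9 CPM and 0.154 and 19.0 CPM), and T cell-like barcodes at 4 d held 40.1, 51.8 and 25.6 CPM. In cells without follicle UMIs Col1a1 and Col1a2 stood at 0.141 and 28.2 CPM and 0.211 and 25.1 CPM, but 18 and 14 cells at 4 d held all of these UMIs and 1 cell held 53.4% and 49.6% of them. Flg, filaggrin of the granular layer, stood at 0.815 and 11.01 CPM, with 88.6% of its UMIs at 4 d in 1 cell, and without the highest cell of each library its ratio was 2.29 and not past 1.5-fold. The T cell markers summed to 174 CPM at 2 d and 174 at 4 d, those of suprabasal keratinocytes to 2204 and 1435, of inner root sheath and matrix to 25.1 and 63.5, of sebaceous gland to 209 and 229 and of endothelial and mural cells to 2.95 and 2.00 CPM. In T cell-like barcodes the suprabasal markers summed to 4024 and 1817 CPM, but the selection limited Krt1 and Krt10, which are among them, in basal cells only. The Langerhans markers summed to 524 and 597 CPM, of which Epcam, also a gene of keratinocytes, made up 349.7 and 513 CPM, while 4 of 5 measured markers were lower (H2-Aa, Cd74, Cd207 and H2-Ab1), with a median log2 ratio of -1.07. The part of Langerhans cell RNA in the class II values was not tested. Fewer cells of a type and less RNA per cell cannot be told apart in such sums.

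The remaining lists are given over all basal cells, where 11.9% of all measured genes were higher and 2.69% lower. With TMM 483 of 9270 measured genes were higher and 521 lower. Counts near these shares, such as that of the P53 targets below, do not set a list apart from all genes. None of 25 ribosome biogenesis factors and none of 25 nuclear oxidative phosphorylation genes was past 1.5-fold (1 and 2 were lower with TMM), with medians of 0.33 and 0.05. Of the inner root sheath, matrix and hair shaft genes 2 of 7 measured members were higher and 2 lower (1 and 3 of 6 with TMM). Of the wider follicle markers 7 of 10 measured members were higher and 1 lower (5 and 1 with TMM). Of the glycolysis and hypoxia genes none of 22 measured members was higher and 1 was lower (0 and 3 with TMM), the lower one being Ndrg1 at 171 and 55.2 CPM. Of the P53 targets 3 of 23 measured members were higher and none lower (1 and 1 with TMM), and of the DNA damage response and mismatch repair genes 2 of 22 measured members were higher and none lower (0 and 0 with TMM). Of the actin, Yap and motility genes 10 of 27 measured members were higher and none lower (7 and 0 with TMM), including Stmn1 at 300.0 and 729.6 CPM, which in T cell-like barcodes stood at 79.0 and 1255 CPM, and Actg1 at 2203 and 3946 CPM. Of the TGF-beta and activin genes 4 of 18 measured members were higher and 1 lower (3 and 3 with TMM). For interferon stimulated genes 2 of 12 measured members were higher and none lower (1 and 3 with TMM), for Serpinb and protease genes 4 of 14 measured members were higher and 3 lower (2 and 4 with TMM), and for glutathione and metallothionein genes 2 of 17 measured members were higher and 2 lower (1 and 3 with TMM). Of the insulin-like growth factor system 3 of 11 measured members were higher and none lower (2 and 0 with TMM), of the glucocorticoid responsive genes 3 of 12 measured members were higher and 1 lower (2 and 1 with TMM), of the basal adhesion genes 4 of 19 measured members were higher and 1 lower (2 and 2 with TMM), and of the serine and one-carbon genes none of 14 measured members was higher and 1 was lower.

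**Figure D5:**
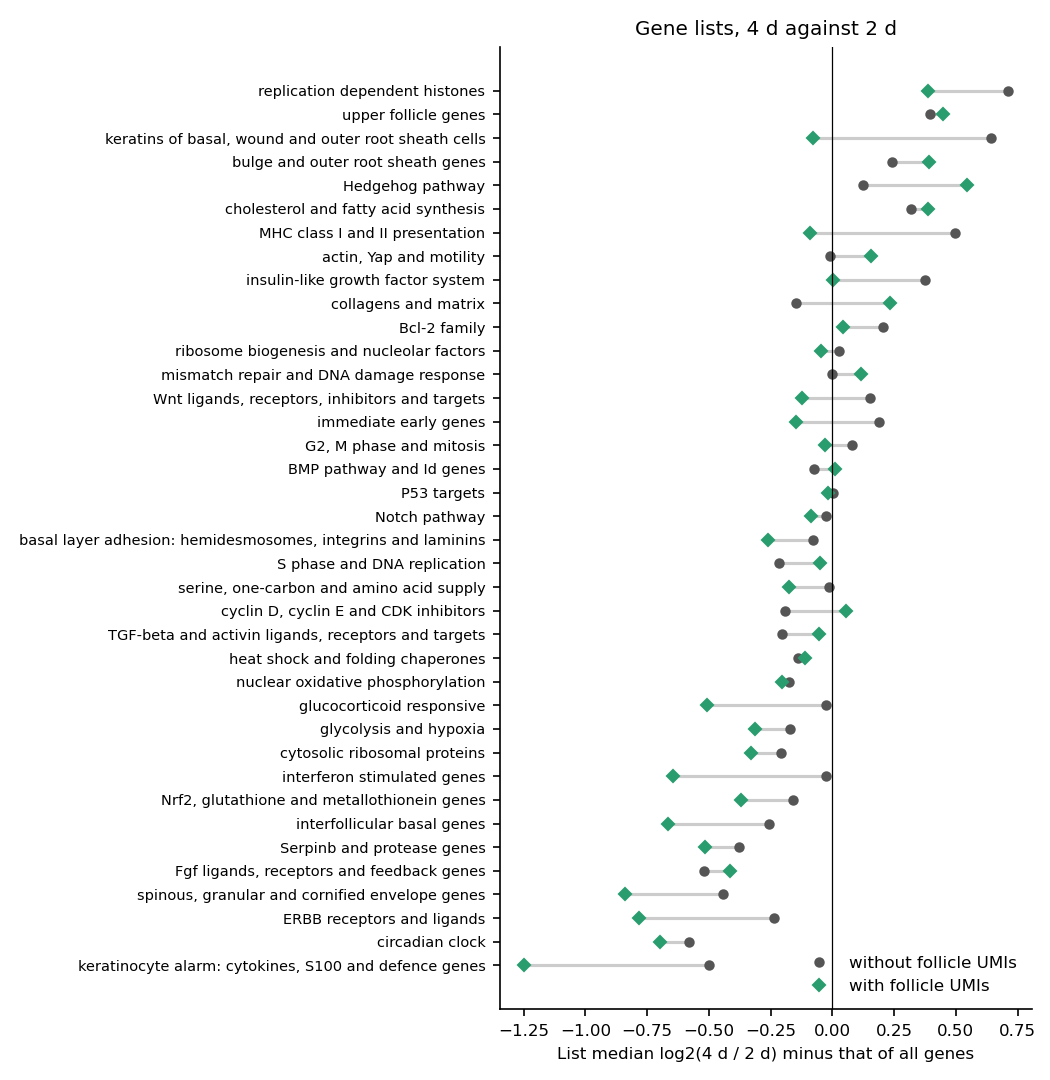
Median log2 ratio of 4 d to 2 d for each gene list with at least 7 measured members in both kinds of cell, minus the median of all measured genes (x axis), in cells without (circles) and with (diamonds) follicle UMIs. The alarm, clock, ERBB and differentiation lists lie to the left in both, and the Hedgehog list lies further right with follicle UMIs.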

How the data were processed

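The counts were deposited by the authors as gene-by-barcode matrices of unnormalised UMI counts for 6 droplet libraries (10x Genomics). The submitters' processing notes name Cell Ranger 6.1.2 and mm10, while the annotation and the counting of introns are not given in the sources used here. Cells were selected by the limits stated above, and members and gene lists were chosen with earlier results of these data known. UMIs were summed per library (pandas 2.3.3). Ratios carry exact conditional binomial (Clopper-Pearson) 95% intervals and shares exact binomial ones (scipy 1.17.1), and the calculation was checked on simulated data. No p-value was computed because each time point is 1 library.

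Named genes were the 12 per direction, over all basal cells and those without and with follicle UMIs, whose interval lay furthest from 1 with at least 20 CPM at one time, leaving out mitochondrial and selection genes. Up to 4 members of each of 40 lists and well-known members were added. Single members that stand as the exception of a list were named after their values were seen.

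Alternatives were TMM (edgeR 4.0.16) and DESeq2 1.42.0 size factors, no low filter, a fold of 2, equal weight per cell, removal of predicted doublets (scrublet in scanpy 1.11.5, 568 basal cells at 2 d and 591 at 4 d, otherwise kept), other cell limits and follicle calls, and non-cycling cells alone. The calls by at least 3 follicle UMIs and by Lhx2 or Lgr5 alone, and sums without the cell with most UMIs, were chosen after seeing the data. Some listed genes are not reported here.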

Additional observations from a re-analysis of the deposited data

Results flagged for a closer look

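Tnc and Mfge8 went in opposite directions in cells without and with follicle UMIs. Tnc, which encodes the matrix protein tenascin C, stood at 10.6 CPM at 2 d and 4.84 CPM at 4 d without follicle UMIs, a ratio of 0.454 (0.356 to 0.575). With follicle UMIs it stood at 11.7 CPM and 30.3 CPM, a ratio of 2.59 (2.19 to 3.07). Mfge8, which encodes a secreted protein that binds integrins and phosphatidylserine, stood at 10.2 CPM and 4.94 CPM without follicle UMIs, a ratio of 0.485 (0.38 to 0.613). With follicle UMIs it stood at 16.2 CPM and 29.5 CPM, a ratio of 1.82 (1.56 to 2.12). With TMM scaling Tnc kept both calls, and Mfge8 was not past 1.5-fold with follicle UMIs. The intervals cover counting error only, the difference between the 2 kinds of cell was not tested over mice, and these genes were picked from all measured genes for this pattern.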

How the results depend on the processing

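Without the filter on low genes 2667 genes were past 1.5-fold in all basal cells, 1505 without and 2485 with follicle UMIs, beside 1357, 826 and 1600 with the filter. With a fold of 2 there were 361, 201 and 522. With the stricter keratin gate there were 809 in all cells and 679 with follicle UMIs. With a wider follicle list, which left 226 cells at 2 d and 440 at 4 d without its UMIs, 274 genes were past 1.5-fold without follicle UMIs, and with at least 3 follicle UMIs as the call 1056. Other counts stayed within 1.5 times.

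The share with follicle UMIs was 7.62 points higher at 4 d, or 12.99 after thinning, 12.48 for at least 2 UMIs, 12.68 for at least 3 and 17.76 for Lhx2 or Lgr5 alone, but -1.382 with the stricter gate. The share of cycling cells differed by -1.91 points, or -10.61 without thinning.

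Of 400 list medians, taken against all genes, 12 moved. With the stricter gate these were S phase (-0.4447), G2 and M phase (0.2493), bulge and outer root sheath (-0.0336), interfollicular basal (-0.1718), Notch (-0.2845) and MHC genes (0.4573). Without the low filter they were G2 and M phase (-0.0560) and heat shock genes (-0.2605). The others were G2 and M phase with equal weight per cell (-0.0555) and in non-cycling cells (-0.3832), cholesterol synthesis in non-cycling cells (0.1210) and upper follicle genes at 5% mitochondrial UMIs (0.8727). Of 1374 gene ratios 1298 kept their side and direction, 45 were no longer past 1.5-fold, 2 were newly past it, 28 that were not past it moved by more than their counting interval and 1 reversed, Sox9 with the stricter gate (0.889761). Idi1 and Actg1 were not past 1.5-fold with DESeq2 size factors. The causes were not tested.

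No paired analysis was possible because each time point is 1 library, and leaving out a replicate was not possible for the same reason. Differences between mice, dissociation and libraries cannot be told apart from time after depilation, and precision at low levels is limited by the UMIs counted.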
